A study of Mus musculus with 6 samples.

Results

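The transcripts described here are 7 genes by which Müller glia, the radial support cells of the retina, are recognised and through which they do their resting work. They are Glul, Slc1a3, Kcnj10, Rlbp1, Sox9, Dkk3 and Clu, named for their known roles in these cells. All 7 were found among the 23420 genes of the count table, and all 7 passed the filter on low counts in every comparison. The question asked is whether these genes held their level after bright light, a model of photoreceptor degeneration, and under minocycline, a tetracycline antibiotic that also dampens microglia.

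Müller cells span the whole thickness of the retina and touch every neuron in it. They take up the glutamate that photoreceptors and bipolar cells release, turn it into glutamine and hand it back, and they carry potassium and water away from active neurons towards the vitreous and the vessels. They also bind visual-pigment retinoids, and after injury they become reactive, a state marked by intermediate filaments such as Gfap and Vim, in which homeostatic genes may be kept or lost.

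RNA of whole mouse retina was sequenced in 3 groups with 2 libraries each, so n = 2 in every group value below. The labels give the strain as CD1, whereas the methods of the study describe albino BALB/cJ mice of both sexes; the labels give neither age nor sex. Control mice had no light exposure named in their labels. Light-exposed mice, per their labels, received 10000 lux for 1 h and were analysed 4 days later; the methods of the study name a brighter light. Minocycline mice, per their labels, had the same exposure plus 45 mg/kg minocycline, injected into the peritoneal cavity on each of 4 days; the methods of the study describe a longer course that began before the light. No vehicle group is labelled, so drug and injection cannot be told apart. Whether a library held 1 retina or a pool is not given in the sources used here, and p-values measure only the spread between these libraries. In bulk tissue, fewer cells of a type and less RNA per cell cannot be told apart.

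Total counts ran from 15205930 to 22856922 per library, and the 7 genes took 0.180% to 0.385% of them. Libraries did not all look alike. Control 1 held 77778 counts of Xist and 11 of the Y-linked genes, against 25 to 188 and 6532 to 12858 in the other libraries, so it alone had the pattern of female tissue. The 2 minocycline columns share a single name in the table and are called A and B here. Both stood apart by genes of non-retinal eye tissue, the 10 genes of the corneal epithelium list summing to 214 and 306 CPM (counts scaled to a common library size) against 4.92 to 20.4 CPM elsewhere. The pigment cell list summed to 312 and 1400 CPM in them against 17.0 to 75.4 CPM in the other libraries. Rod genes summed to 102544 and 130898 CPM in the controls and 54762 and 76706 CPM after light.

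Levels between genes were compared as CPM per kilobase of exon, the merged exon length of the GENCODE M21 annotation on GRCm38. In control retina Glul stood first at 364 ± 117 CPM per kilobase (SD, n = 2). Rlbp1 followed at 138 ± 30.2, Dkk3 at 96.7 ± 34.1 and Clu at 75.7 ± 6.58 CPM per kilobase. Slc1a3 at 12.9 ± 0.51 and Kcnj10 at 12.3 ± 3.81 CPM per kilobase came lower, and Sox9, a transcription factor, was last at 1.79 ± 0.99. The libraries of Rlbp1 and Dkk3, of Dkk3 and Clu, and of Slc1a3 and Kcnj10 overlapped, so the order of these neighbours was not resolved in the controls. The mean order was the same after light. With minocycline Kcnj10 at 17.1 and Slc1a3 at 16.5 CPM per kilobase changed places, but their libraries overlapped. The merged exons of Slc1a3 come to 8537 bases over 8 annotated transcripts, which sets its value per kilobase low if a short form prevails.

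**Figure D1:**
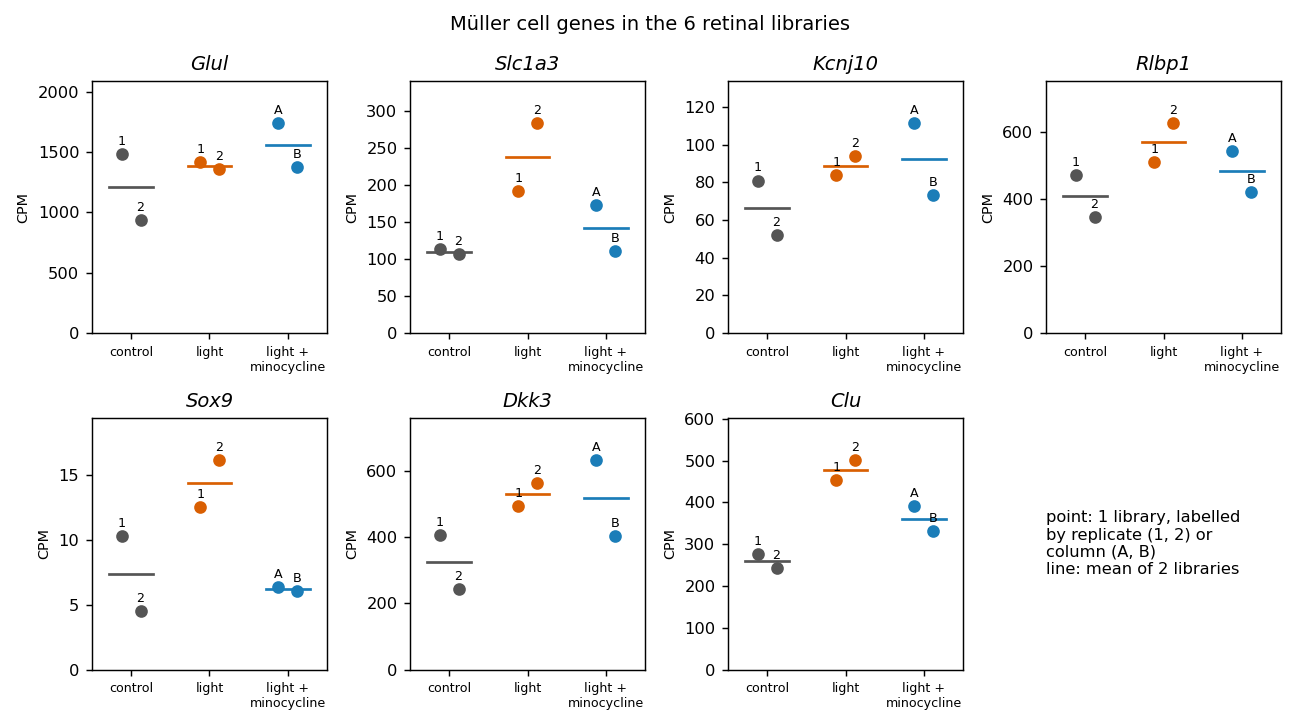
CPM (linear axis from 0, 1 panel per gene) in each of the 6 retinal libraries, with lines at the mean of the 2 libraries of a group. Slc1a3 and Clu lay higher in both light-exposed libraries (192 and 284 CPM, 454 and 502 CPM) than in both controls, while Glul of the light-exposed libraries lay between the controls.

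Glutamate handling is represented by a pair of the 7 genes. Slc1a3 encodes GLAST, the main glutamate uptake carrier of Müller cells, and Glul encodes glutamine synthetase, which converts the glutamate taken up. Slc1a3 rose 2.18-fold after light, the largest fitted change of the 7, whereas Glul was not called in any comparison. The difference between their changes was not tested, and their 95% intervals overlapped. Slc1a3 lies on the minus strand of GRCm38 at chr15:8634124-8710764 and Glul on the plus strand at chr1:153899944-153909723. Their RefSeq promoters are shown because the one gene passed the test after light and the other, with the higher level, did not. Each is the 250 bases before the RefSeq start, 5′ to 3′ on the gene's own strand, taken from GRCm38.p6 at chr15:8710808-8711057 for Slc1a3 (minus strand) and chr1:153899679-153899928 for Glul (plus strand).
Slc1a3: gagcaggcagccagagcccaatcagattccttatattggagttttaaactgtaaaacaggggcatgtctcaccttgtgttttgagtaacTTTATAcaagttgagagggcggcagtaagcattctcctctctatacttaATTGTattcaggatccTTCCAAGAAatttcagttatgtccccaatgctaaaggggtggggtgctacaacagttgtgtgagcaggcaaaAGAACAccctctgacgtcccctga
Glul: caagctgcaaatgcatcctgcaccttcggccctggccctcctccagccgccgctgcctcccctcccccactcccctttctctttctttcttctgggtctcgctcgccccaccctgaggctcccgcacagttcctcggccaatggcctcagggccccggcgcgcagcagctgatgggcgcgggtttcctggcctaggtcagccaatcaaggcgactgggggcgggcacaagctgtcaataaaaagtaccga
Capitals mark letters that match a searched motif on either strand. From left to right in Slc1a3 they are the TATA box TATAAA at 161 to 156 bases before the start on the reverse strand, the SOX core ACAAT at 112 to 108 on the reverse strand, the STAT motif TTCNNNGAA at 96 to 88, and the glucocorticoid response element half-site AGAACA at 24 to 19. None of these overlap. In Glul, none of the 9 motifs searched was matched, which says only that these letters are not in this window. Over 32851 promoter windows of the same length the same letters occurred in 12.4%, 27.7%, 7.02% and 16.1%. The other motifs searched were CRX/OTX TAATCC (6.25%), the nuclear factor I half-site TTGGCA (12.3%), RBPJ TGGGAA (21.6%), AP-1 TGANTCA (6.75%) and the heat shock element core TTCNNGAA (7.17%). The window of Slc1a3 had a GC content of 44.8% and that of Glul 64.8%.

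In the controls Slc1a3 was measured at 113 and 107 CPM, from 1582 and 1518 counts. The light-exposed libraries held 192 and 284 CPM of Slc1a3, from 3302 and 5988 counts. With minocycline they held 172 CPM in A and 110 CPM in B. Both light-exposed libraries stood above all others, and minocycline B lay between the controls. The group means were 110 ± 4.39, 238 ± 64.7 and 141 ± 44.0 CPM (SD, n = 2). Light against control gave a log2 fold change of 1.13 (SE 0.19, 95% interval 0.70 to 1.55, adjusted p = 0.0124, quasi-likelihood test of edgeR, Benjamini-Hochberg over 14349 genes). This call needed both controls: the log2 fold change was 1.15 with an adjusted p of 0.0878 without control 1, and 1.08 with an adjusted p of 0.134 without control 2. Over the other settings its adjusted p went down to 2.37e-06 with DESeq2. It was 1.42e-06 with a block for the replicate number, which was not taken as a pairing. Minocycline against light gave a log2 fold change of -0.75 (95% interval -1.39 to -0.10, adjusted p = 0.186), and the libraries did not overlap. With 1 library left out it ran from -1.08 to -0.45. Against control the difference was 0.41 (95% interval -0.09 to 0.90, adjusted p = 0.742), with overlapping libraries, and ran from 0.05 to 0.65 with 1 library left out.

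Glul stood at 1482 and 934 CPM in the controls, from 20768 and 13293 counts. It stood at 1417 and 1361 CPM after light and at 1741 and 1373 CPM with minocycline. The spread of the controls enclosed both light-exposed libraries and minocycline B. The log2 fold change after light was 0.21 (95% interval -0.32 to 0.74, adjusted p = 0.602). It was 0.17 for minocycline against light (95% interval -0.30 to 0.65, adjusted p = 0.681) and 0.41 for minocycline against control (95% interval -0.16 to 0.98, adjusted p = 0.742). The sign after light followed 1 library, since without control 2 the log2 fold change was -0.0876. These intervals leave room for a change of moderate size in either direction after light, so the same level is not shown.

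With TMM scaling the other genes of glutamate and glutamine handling did not move one way. Of 15 tested, 1 rose after light, 1 fell and 13 were not called, beside 11.3% of all genes called. Under the other scalings 1 to 3 were called higher and 0 to 1 lower. The median log2 fold change was -0.37 against 0.00 over all genes, and ran from -0.43 to -0.12 with 1 library left out (-0.12 without control 2) and to -0.13 with total library size. Slc7a11, the cystine and glutamate exchanger, rose with a log2 fold change of 0.93 (adjusted p = 0.0244) from a mean of 13.5 to 25.7 CPM. Slc38a2, a neutral amino acid transporter that carries glutamine, fell by 0.65 on the log2 scale (adjusted p = 0.0488) from 180 to 114 CPM, a call lost whichever of the 4 libraries was left out. With minocycline against light none of the 15 was called, and 1 was called higher without minocycline A. There Slc38a2 had a log2 fold change of 0.82 and Slc7a11 of -0.88, each with an adjusted p of 0.0698.

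Kcnj10 encodes Kir4.1, the inward rectifier through which Müller cells take up and release potassium (chr1:172341210-172374085, plus strand). It was not called in any comparison. Its values were 80.9 and 51.8 CPM in the controls, 83.9 and 93.7 CPM after light, and 111 and 73.5 CPM with minocycline. The light-exposed libraries lay just above control 1, and minocycline A was the highest of the 6. The log2 fold change after light was 0.43 (95% interval -0.02 to 0.88, adjusted p = 0.189), being 0.78 without control 1 and 0.14 without control 2. Minocycline against light gave 0.07 (95% interval -0.40 to 0.53, adjusted p = 0.888), a direction that turned to -0.100 when libraries were scaled by their total counts. Minocycline against control gave 0.52 (95% interval -0.10 to 1.15, adjusted p = 0.742).

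Among 16 tested genes of potassium, water and ion handling, 1 rose after light, 2 fell and 13 were not called (median log2 fold change 0.18). That median ran from 0.00 without light 1 to 0.32 without control 1, and with total library size it was 0.41, with 5 genes called higher. Dtna, the dystrobrevin of the complex that anchors channels in the endfoot membrane, rose from 30.1 to 53.2 CPM (log2 fold change 0.83, adjusted p = 0.0224). Aqp1, a water channel, fell from 244 to 115 CPM (log2 fold change -1.07, adjusted p = 0.0251). Aqp4, the water channel that lies beside Kir4.1 in Müller endfeet, was singled out after its values were seen. It was at 127 and 69.4 CPM in the controls, 183 and 234 CPM after light, and 125 and 90.9 CPM with minocycline. The light-exposed libraries of Aqp4 lay above the other 4, but neither the log2 fold change of 1.10 after light (adjusted p = 0.0629) nor that of -0.94 for minocycline against light (adjusted p = 0.0769) was called. No gene of the list was called for minocycline against light with all libraries, but 1 was called higher and 2 lower without light 1, and 2 higher and 1 lower without minocycline A.

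Rlbp1 encodes CRALBP, which binds 11-cis-retinoids in Müller cells and in the retinal pigment epithelium (chr7:79374870-79387048, minus strand). It was at 471 and 345 CPM in the controls, 510 and 626 CPM after light, and 544 and 420 CPM with minocycline. Light-exposed libraries were above the controls without overlap, while minocycline A lay in the range of the former and B in that of the latter. The log2 fold change after light was 0.49 (95% interval 0.04 to 0.93, adjusted p = 0.139) and was not called, being 0.27 without control 2 and 0.73 with a call (adjusted p = 0.0492) with total library size. Over all settings its adjusted p ran from 0.0492 to 0.671. It was -0.23 for minocycline against light (95% interval -0.69 to 0.23, adjusted p = 0.557) and 0.28 for minocycline against control (95% interval -0.20 to 0.77, adjusted p = 0.749). The retinal pigment epithelium list, the other source of Rlbp1, summed to 355 and 511 CPM in the controls, 322 and 360 CPM after light, and 322 and 367 CPM with minocycline. Otx2, which is also on the bipolar cell list, gave 244 and 243 CPM of these in the controls, 193 and 177 after light, and 219 and 227 with minocycline. These sums are therefore not a measure of pigment epithelium alone. Rpe65 of the same list stood at 19.6 and 67.9 CPM in the controls, 21.2 and 29.8 after light, and 18.8 and 31.8 with minocycline. None of the 9 genes of this list was at 0 in every library, and the part of pigment epithelium in the Rlbp1 values was not tested.

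Of 14 other genes of retinoid handling, 1 rose after light, 1 fell and 12 were not called (median log2 fold change 0.05, from 0.01 to 0.14 with 1 library left out and 0.29 with total library size). Cyp26a1, which degrades retinoic acid, rose from 4.47 to 10.1 CPM (log2 fold change 1.19, adjusted p = 0.0302). Rdh11, a retinol dehydrogenase, fell from 35.3 to 21.5 CPM (log2 fold change -0.71, adjusted p = 0.0371), a call likewise lost in each fit without 1 library. In minocycline against light neither they nor the other 12 were called, with log2 fold changes of -1.23 for Cyp26a1 (adjusted p = 0.126) and 0.81 for Rdh11 (adjusted p = 0.0698). Without light 1, 1 of the 14 was called lower.

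Sox9 encodes the transcription factor that marks Müller nuclei and is needed for their formation (chr11:112782224-112787760, plus strand). It rests on few reads, 64 to 341 counts per library. Its values were 10.3 and 4.50 CPM in the controls, 12.5 and 16.2 CPM after light, and 6.34 and 6.03 CPM with minocycline. Both minocycline libraries lay between the controls and below both light-exposed libraries. The log2 fold change after light was 0.97 (SE 0.36, 95% interval 0.15 to 1.79, adjusted p = 0.117), with controls that differed 2.28-fold between themselves. It was 1.67 without control 1, 0.49 without control 2 and 1.14 without light 1. A block for the replicate number, which was not taken as a pairing, gave a call (adjusted p = 0.0117). In the other settings with all libraries the adjusted p ran from 0.067 with total library size to 0.125 with all 6 libraries in one fit. Minocycline against light gave the largest difference of the 7 genes, -1.20 on the log2 scale (SE 0.24, 95% interval -1.77 to -0.63, adjusted p = 0.0709, not called). It was called with DESeq2 (adjusted p = 0.00400) and by edgeR with no filter on low counts (0.0262), whereas with total library size the adjusted p was 0.0986. With 1 library left out the log2 fold change ran from -1.39 to -1.03. Minocycline against control gave -0.21 (95% interval -1.08 to 0.67, adjusted p = 0.871), and 0.490 without control 1.

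In the glial identity and Notch list 3 of 21 tested genes rose after light, 1 fell and 17 were not called (median log2 fold change 0.34), beside 7.52% of all genes called higher. Sox8, a SoxE factor like Sox9, rose from 6.70 to 13.7 CPM (log2 fold change 1.04, adjusted p = 0.0259). Nfib, a nuclear factor I protein, rose from 29.0 to 46.7 CPM (log2 fold change 0.70, adjusted p = 0.0334). Jag1, a Notch ligand, fell from 253 to 164 CPM (log2 fold change -0.62, adjusted p = 0.0415). The median of this list was -0.03 without control 2, so its sign depended on that library, and 0.57 with total library size. For minocycline against light none of 22 was called, the value of Sox8 being -1.29 on the log2 scale (adjusted p = 0.0769).

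Dkk3 encodes a secreted glycoprotein of the Dickkopf family, whose other members block the Wnt receptors Lrp5 and Lrp6 (chr7:112116017-112159057, minus strand). It was at 406 and 244 CPM in the controls, 494 and 564 CPM after light, and 633 and 403 CPM with minocycline. Light-exposed libraries were above both controls, whereas minocycline B was level with control 1. The log2 fold change after light was 0.72 (95% interval 0.19 to 1.24, adjusted p = 0.0786, not called). It was called with total library size (adjusted p = 0.0365), with DESeq2 (0.0117) and with no filter on low counts (0.0323). A block for the replicate number, which was not taken as a pairing, also gave a call (0.00657). With all 6 libraries in one fit the adjusted p was 0.152. The log2 fold change was 1.12 without control 1, 0.81 without light 1 and 0.39 without control 2. Minocycline against light gave -0.02 (95% interval -0.57 to 0.52, adjusted p = 0.969). Minocycline against control gave 0.72 (95% interval 0.02 to 1.42, adjusted p = 0.703), which became 0.96 with an adjusted p of 0.01, a call, without minocycline B. Over the alternatives that adjusted p ran from 0.01 to 1.

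Of the 13 listed Dickkopf, receptor and secreted Wnt antagonist genes, 7 passed the filter in light against control, 2 rose and none fell. The median log2 fold change was 0.07, below its range of 0.27 to 0.50 with 1 library left out, and 0.31 with total library size. Lrp5, the Wnt co-receptor, rose from 7.15 to 16.4 CPM (log2 fold change 1.21, adjusted p = 0.0197). Kremen1, a receptor that binds Dickkopf proteins, rose from 56.7 to 85.8 CPM (log2 fold change 0.61, adjusted p = 0.0303). For minocycline against light none of 8 was called, though 2 were called higher without minocycline A, with -0.94 for Lrp5 (adjusted p = 0.100) and -0.71 for Kremen1 (adjusted p = 0.0698) on the log2 scale.

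Clu encodes clusterin, a secreted chaperone and lipid carrier also made by other cells of the eye (chr14:65968483-65981547, plus strand). It rose 1.85-fold after light, the other call among the 7. Its values were 276 and 244 CPM in the controls, 454 and 502 CPM after light, and 390 and 332 CPM with minocycline. The 3 groups did not overlap, light being highest and control lowest. Group means were 260 ± 22.6, 478 ± 33.7 and 361 ± 41.6 CPM (SD, n = 2). The log2 fold change after light was 0.89 (SE 0.17, 95% interval 0.52 to 1.25, adjusted p = 0.0141). As with Slc1a3, the call was lost without either control, at an adjusted p of 0.0649 without control 1 and 0.102 without control 2, while the log2 fold change was 0.97 and 0.80. The lowest adjusted p over the other settings was 2.9e-06. Minocycline against light gave -0.40 (95% interval -0.78 to -0.01, adjusted p = 0.226). Minocycline against control gave 0.52 (95% interval 0.12 to 0.91, adjusted p = 0.496). The minocycline libraries also held the corneal epithelium genes given above, whose part in their Clu level was not tested.

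Among 11 partners of Clu, which are apolipoproteins, lipid exporters and receptors of the LDL receptor family, 3 rose after light, 1 fell and 7 were not called (median log2 fold change 0.26, from 0.19 to 0.43 with 1 library left out and 0.50 with total library size). Apoc1, an apolipoprotein, rose from 0.99 to 7.68 CPM (log2 fold change 2.95, adjusted p = 0.00620). Apoe, made by Müller cells and by microglia, rose from 190 to 1054 CPM (log2 fold change 2.48, adjusted p = 0.0375). Abca1, a cholesterol exporter, rose from 93.1 to 244 CPM (log2 fold change 1.40, adjusted p = 0.00806), and Abcg1, another exporter, fell by 0.53 on the log2 scale (adjusted p = 0.0465). The microglia list moved with them, from 66.1 and 75.7 CPM in the controls to 519 and 1659 CPM after light, and its part in these values was not tested. None of the 11 was called for minocycline against light, where the median was -0.52, but 5 were called lower without light 1 and 1 without minocycline A.

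Counted together, 2 of the 7 genes were called after light, both higher, beside 11.3% of the 14349 genes tested (7.52% higher). All 7 had a log2 fold change above 0, from 0.21 to 1.13, as had 50.2% of all genes. The median was 0.72 against 0.00 over all genes, and it depended on the controls, being 0.97 without control 1 and 0.39 without control 2. In 6 of 7, Glul being the exception, both light-exposed libraries lay above both controls, which held for 30.1% of all genes. None fell, and none passed with the log2 fold change of at least 2 that the study used as a cutoff, which 2.92% of all genes did. The directions were the same under the 3 other scalings of the libraries. Scaling by total counts called 4 of 7. It also moved the median over all genes to 0.24 on the log2 scale, and with it the share of higher calls from 66.4% to 93.6%. Without control 1, or without control 2, none of the 7 was called, and over all genes 4 and 57 were.

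For minocycline against light none of the 7 was called by edgeR in the main fit, beside 0.0542% of 14750 genes. At an unadjusted p under 0.05 there were 3 (Slc1a3, Sox9 and Clu, all lower), beside 21.1% of all genes. Both minocycline libraries lay below both light-exposed libraries in the same 3 genes, which held for 28.1% of all genes. DESeq2 called 2 of 7, Slc1a3 (adjusted p = 0.0452) and Sox9 (adjusted p = 0.00400), and 1197 of all genes. With no filter on low counts edgeR called Sox9 (adjusted p = 0.0262) and 732 of all genes. The adjusted p of Slc1a3 over all settings ran from 0.0452 to 0.812. Against control none was called either, beside 0.162% of 14181 genes. Unadjusted, 2 of 7 had a p under 0.05, Dkk3 and Clu, beside 7.01%. Clu alone of the 7 did not overlap the controls, which held in the same direction for 15.5% of all genes. These comparisons share libraries with the first, so none of them is independent of it.

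**Figure D2:**
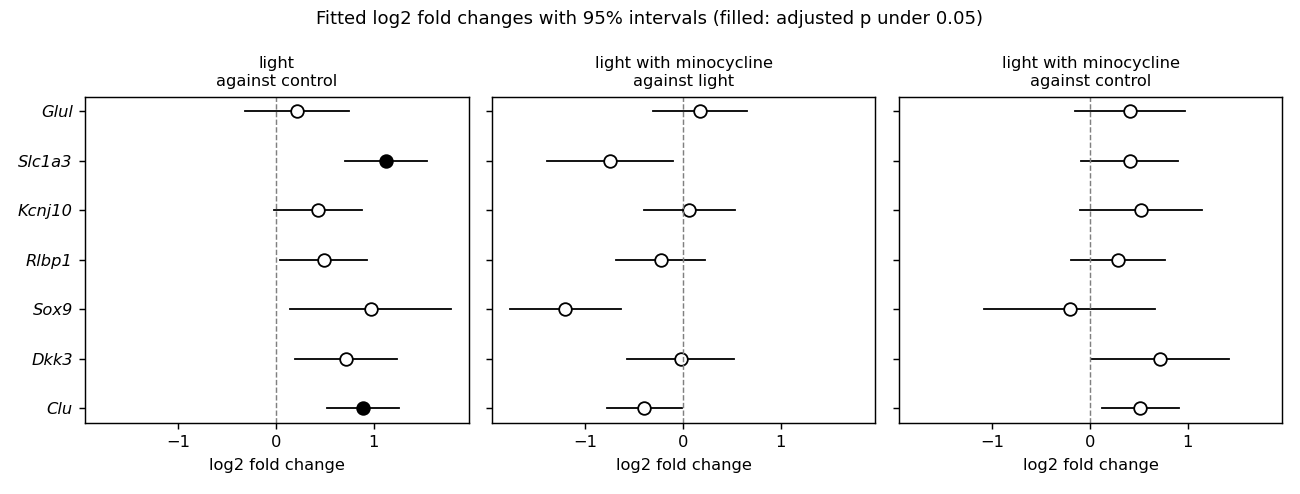
Fitted log2 fold changes with 95% intervals for the 7 genes in the 3 comparisons, filled where the adjusted p was under 0.05. Slc1a3 and Clu are filled after light (1.13 and 0.89), and no gene is filled in either minocycline comparison.

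Libraries of one group also differed in these genes. Control 1 held more than control 2 in 7 of 7 genes, by a median of 0.64 on the log2 scale, when 51.2% of 11164 genes with enough counts were higher in control 1. Minocycline A held more than B in 7 of 7 as well (median 0.37, 50.5% of all genes). Light 1 held more than light 2 in 1 of 7, Glul. The 7 genes thus shifted together between libraries of one group, and are not 7 separate observations of a treatment. Over the 6 libraries the pairwise Pearson r of their log2 CPM ran from 0.36 for Glul with Slc1a3 to 0.98 for Kcnj10 with Dkk3, a description over points that share libraries, depth and rod content.

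Ratios to other genes of the same library were therefore taken too, a choice made after the values were seen. Per 1000 Glul counts of the same library, Slc1a3 had 76.2 and 114 counts in the controls and 136 and 208 after light. Clu had 186 and 261 per 1000 Glul counts in the controls and 320 and 369 after light, and Dkk3 274 and 261 against 348 and 415. Each of these lay higher after light with no overlap, as did Kcnj10 and Sox9, whereas Rlbp1 overlapped. Minocycline libraries had 99.0 and 80.3 counts of Slc1a3 per 1000 Glul counts, within the control range, and 3.64 and 4.39 of Sox9, below both controls at 6.93 and 4.81.

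Bipolar cells served as another reference, being neurons of the inner retina that lie beside Müller cell bodies. Their 10 listed genes summed to 1362 and 1330 CPM in the controls and 1666 and 2088 CPM after light, and 4 of the 10 were called higher (0 without either control and 1 without light 2). Per 1000 counts of this list Slc1a3 had 82.9 and 80.2 counts in the controls and 115 and 136 after light, a ratio of 1.54. Clu had 203 and 184 in the controls and 273 and 240 after light, a ratio of 1.33. These were the only genes of the 7 whose light-exposed libraries stayed clear of the controls on this scale. Trpm1, 1 of the 10 genes, had 3537 and 4455 counts in the controls and 8272 and 15665 after light. Those belonged to list totals of 19086, 18923, 28603 and 44052 counts. On these counts, the overlap of Rlbp1, Dkk3 and Sox9 with the controls depends on Trpm1 being in the list. So do the positions of Slc1a3, Clu and Rlbp1 with minocycline given below. Glul had 1088 and 702 in the controls and 851 and 652 after light, Dkk3 298 and 183 against 296 and 270, and Sox9 7.54 and 3.38 against 7.52 and 7.74, all overlapping. With minocycline, Sox9 at 4.30 and 4.82 lay below both light-exposed libraries, Clu at 265 in both libraries lay within their range, and Slc1a3 at 117 and 88.0 overlapped them. The other 4 genes lay above both light-exposed libraries on this scale. Their mean log2 differences from light were 0.61 for Glul, 0.49 for Kcnj10, 0.39 for Dkk3 and 0.22 for Rlbp1, whereas on the CPM scale Dkk3 and Rlbp1 had fitted values of -0.02 and -0.23. These ratios were described and not tested.

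**Figure D3:**
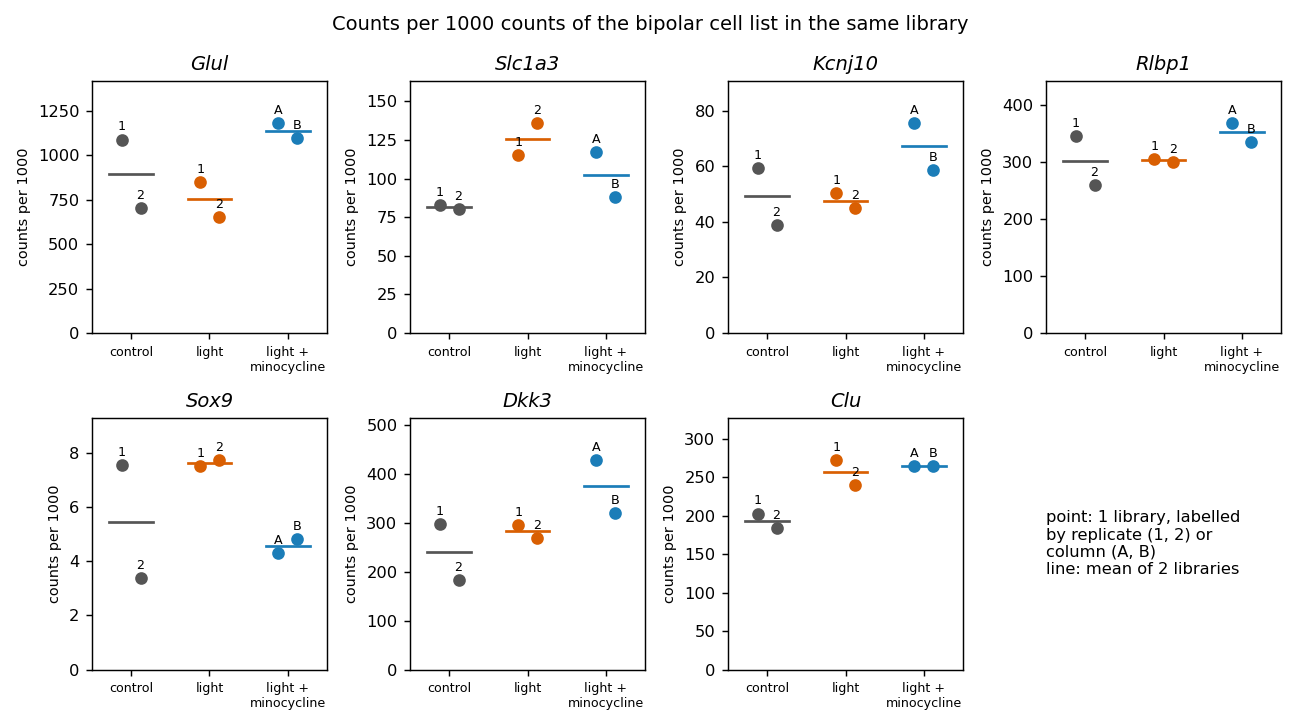
Counts of each gene per 1000 counts of the bipolar cell list in the same library (linear axes from 0), with lines at the mean of 2 libraries. After light Slc1a3 (115 and 136) and Clu (273 and 240) stay above both controls, while the other 5 genes overlap them. For Rlbp1, Dkk3 and Sox9 that overlap depends on Trpm1 being in the list.

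The wider set of Müller markers and the reactive genes frame these values. Of 18 other Müller cell markers, 7 rose after light, 1 fell and 10 were not called, with a median log2 fold change of 0.69. That median was 0.92 without control 1, 0.35 without control 2 and 0.44 without light 2. Crym, a crystallin that binds thyroid hormone, rose from 32.4 to 146 CPM (log2 fold change 2.19, adjusted p = 0.00627). Vim, the intermediate filament of Müller cells, rose from 53.6 to 174 CPM (log2 fold change 1.71, adjusted p = 0.0197), and Cd9 and S100a16 rose by 1.69 and 1.35 on the log2 scale (adjusted p = 0.0418 and 0.00875). Microglia and macrophages also express Vim and Cd9, and the summed level of their list (given above) was higher in both light-exposed libraries, most in light 2, where Vim was at 222 CPM against 127 CPM in light 1. Its part in these values and in those of the reactive genes was not tested. Prss56, a secreted protease of Müller cells, fell from 7.24 to 1.60 CPM (log2 fold change -2.17, adjusted p = 0.0141). None of the 18 was called for minocycline against light, Crym having -2.27 on the log2 scale at an adjusted p of 0.0638. Without light 1, 4 were called lower, and the median of -0.16 ran from -0.35 to 0.02 with 1 library left out.

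Of 14 reactive glia genes 9 rose after light and none fell, with a median log2 fold change of 1.91. Gfap, the filament of reactive Müller cells and of resting astrocytes, rose from 21.2 to 85.1 CPM (log2 fold change 2.02, adjusted p = 0.0154). The 4 with the largest changes were Timp1 (4.53), Serpina3n (3.87), Bcl3 (3.61) and Lcn2 (3.13), on the log2 scale, with adjusted p from 2.09e-05 to 0.00470. For minocycline against light 3 of 14 fell and none rose. Serpina3n had a log2 fold change of -2.19 (adjusted p = 0.0307), Lcn2 of -3.32 and Timp1 of -3.74 (each with an adjusted p of 0.0444). That count was between 0 and 1 under other scalings of the libraries, and with 1 library left out it ran from 1 without minocycline B to 5 without minocycline A and 9 without light 1. Without either control, no gene of the 7 other glial and pathway lists was called after light, and 1 and 3 reactive genes were. Scaled by total counts, the genes called lower after light came to 1 of the potassium list, 1 of the other Müller markers and 0 of the other 5 lists.

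**Figure D4:**
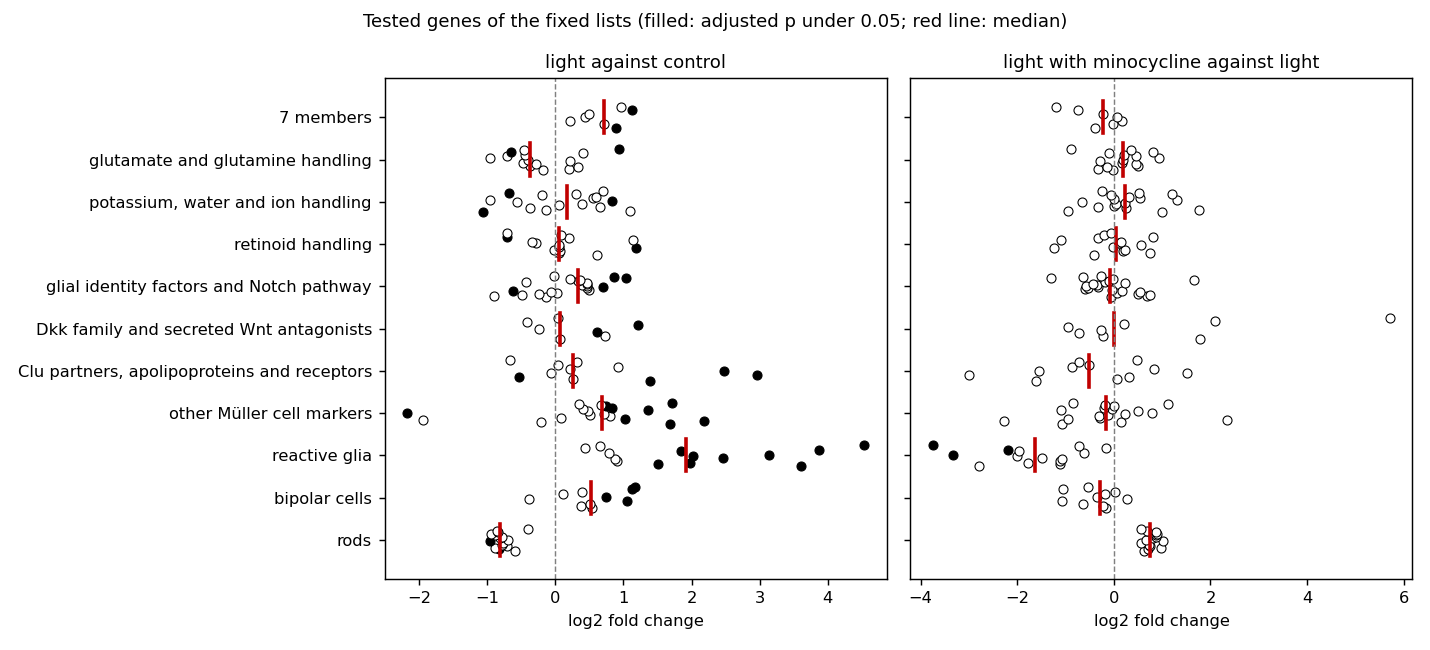
Log2 fold changes of each tested gene of the lists after light and for minocycline against light, filled where the adjusted p was under 0.05, with the median as a red line. After light the median is 0.72 for the 7 genes, 0.69 for other Müller cell markers, 1.91 for reactive glia, 0.52 for bipolar cells and -0.82 for rods.

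Genes whose log2 CPM over the 6 libraries was most like that of each of the 7 were looked up among 11157 genes with a mean of at least 100 counts. The closest were BC048943 for Glul (Pearson r = 0.996), 9830001H06Rik for Slc1a3 (0.996), Camk2n1 for Kcnj10 (0.997) and Synpr for Rlbp1 (0.995). For Sox9 it was Lman2 (0.986), for Dkk3 Acbd6 (0.998) and for Clu Zfand2a (0.997). Next in order came Dynlrb1 for Glul (0.995), Olfm2 for Slc1a3 (0.995), Kctd8 for Kcnj10 (0.997), Stx7 for Rlbp1 (0.994), Psma4 for Sox9 (0.983), Ap2s1 for Dkk3 (0.997) and Rpl5 for Clu (0.995). None of these 14 was on the list of other Müller cell markers. The points share library, depth and rod content, so these values are a description.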

How the data were processed

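RNA of whole mouse retina was sequenced in 3 groups of 2 libraries. Per the labels, RNA was isolated with an RNeasy kit, made into stranded TruSeq mRNA libraries and sequenced on a HiSeq 1000; reads were aligned to mm10 with STAR. Versions, gene annotation and use of strand in counting are not given in the sources used here. The deposited values are whole-number counts per gene, used as unscaled counts because library totals differ, although the study's data statement calls them normalized; the authors' DESeq2 step is not in them. No value column was left unused (0). The 2 minocycline columns share a header and were kept as replicates with no number.

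Groups were compared in pairs in R 4.3.3 with the robust quasi-likelihood test of edgeR 4.0.16, after filterByExpr and TMM scaling, with p-values adjusted by Benjamini-Hochberg over all genes tested and a call at an adjusted p under 0.05. SE is the log2 fold change over the root of the F statistic, and intervals are at 95%. CPM used TMM over all 6 libraries, with a prior count of 2 for log2 CPM. The lowest value that could be told from 0, 3 counts, was 0.131 to 0.214 CPM per library, which covers counting error only. With n = 2 the precision rests on the spread borrowed across genes.

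Gene positions and exon lengths came from GENCODE M21 on GRCm38, matching 21764 genes by symbol and 1277 by synonym of 23420. Promoters came from RefSeq on GRCm38.p6, which matched 4 of 7 genes (not Sox9, Dkk3 or Clu). The steps were tested on simulated data. DESeq2 1.42.0 without shrunken fold changes, other scalings, other filters, a fit of all libraries and fits without 1 library were alternatives.

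The members, 18 gene lists and tests were chosen with earlier results of these data known. Genes of the lists were named by a rule: those called, up to 4 in each direction with the largest change, or the 2 largest where fewer than 2 were called; up to 3 by CPM in each cell type list; and the 2 most like each member. Some genes that the rule names are not reported here. Ratios to Glul and to bipolar genes were added after the data were seen.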

Additional observations from a re-analysis of the deposited data

How the results depend on the processing

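Of 259 refits of single genes of the 7 under other settings, 235 kept direction and side of the threshold, 13 gained a call, 4 lost one and 7 reversed. The 4 lost calls were Slc1a3 and Clu after light without either control, with values in the report. The reversed log2 fold changes, none of them called, were Glul after light without control 2 (-0.0876; -0.0876 to 0.57 with any 1 library left out), Kcnj10 in minocycline against light with total library size (-0.100), without light 1 (-0.0212) and without minocycline A (-0.239; -0.239 to 0.32 with any 1 library left out), Dkk3 there without light 2 (0.0589) and without minocycline B (0.257; -0.36 to 0.257 with any 1 library left out), and Sox9 in minocycline against control without control 1 (0.490; -0.68 to 0.490 with any 1 library left out). The cause was not tested. After light, 2 of the 7 were called; the count was 4 with total library size, 3 with DESeq2, 3 with no filter on low counts, 0 at an adjusted p under 0.01, 0 with the log2 fold cutoff of 2 and 0 to 4 with 1 library left out. Over all genes 1624 calls became 88 at the stricter p, 419 with the fold cutoff and 4 to 2145 with 1 library left out. For minocycline against light, 0 of the 7 became 2 with DESeq2, 1 with no filter (Sox9) and 0 to 1 with 1 library left out. Its 8 calls over all genes, of 3117 at an unadjusted p under 0.05, became 2 with size factors, 0 with total library size, 2 with upper quartile, 1197 with DESeq2, 15 without robust estimation, 732 with no filter, 488 with all 6 libraries in one fit, 0 at an adjusted p under 0.01 and 14 to 772 with 1 library left out. For minocycline against control, 0 of the 7 became 0 to 1 with 1 library left out. Its 23 calls over all genes, of 994 unadjusted, became 168 with DESeq2, 187 with no filter, 3 with at least 10 counts in every library, 0 with all 6 libraries, 0 at an adjusted p under 0.01 and 3 to 480 with 1 library left out.

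Control and light libraries share replicate numbers, but deviations of equal numbers correlated at only -0.0103 over 14713 genes, so the numbers were not taken as pairs. With the replicate block 4 of the 7 and 2525 of all genes were called after light. No paired analysis was possible because of missing replicate numbers where minocycline columns entered. Sox9, with as few as 64 counts in a library, is the gene most limited by depth.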

Other observations

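Cell types around the Müller cells moved as follows. After light 2 of 15 rod genes fell, Nrl by 0.96 and Cngb1 by 0.83 on the log2 scale (edgeR, adjusted p = 0.0296 and 0.0372), with a list median of -0.82. The rod count was 12 without light 1, 14 with DESeq2, and 0 with total library size and without control 1, control 2 or light 2. Of 14 microglia and macrophage genes 4 rose after light (median log2 fold change 4.23), while C1qa and C1qb had adjusted p of 0.0981 and 0.0830. The count depended on the settings: all 14 were called with total library size, with DESeq2 and without light 1, 12 without light 2 and 0 without either control. Of 4 tested astrocyte genes 1 rose, Gfap. Of 8 endothelial genes 1 rose, Kdr, from a mean of 124 to 225 CPM (log2 fold change 0.87, adjusted p = 0.0166). Neither of these 2 lists had a call without either control. The 2 tested lens genes rose, among them Cryab (log2 fold change 1.66, adjusted p = 0.00560), a small heat shock protein that glia also make. Light 1 alone held lens crystallins in quantity, with 108 CPM of Cryaa against 0.05 to 10.4 CPM in the other libraries. None of 8 retinal pigment epithelium, 7 pigment cell, 6 corneal epithelium or 6 smooth muscle genes tested was called after light with all libraries and TMM scaling.

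For minocycline against light 2 of 9 tested corneal epithelium genes rose, Dsp from 0.60 to 17.0 CPM and Calml3 from 1.02 to 12.1 CPM (adjusted p = 0.0444 and 0.0458). The count was 0 under each other scaling, 1 without minocycline B, 5 without light 2 or minocycline A and 8 of 10 without light 1. No gene of the rod, bipolar, microglia, astrocyte, endothelial, lens, pigment epithelium, pigment cell or smooth muscle lists was called there by edgeR with all libraries. With 1 library left out up to 8 microglia and 2 astrocyte genes were called lower and up to 6 pigment cell, 6 smooth muscle and 1 rod gene higher, and 1 bipolar and 1 lens gene lower. The median log2 fold changes were 0.74 for rods, -3.63 for microglia, 4.38 for pigment cells and 3.62 for smooth muscle. Smooth muscle genes summed to 85.1 and 382 CPM in the minocycline libraries and 14.3 to 28.3 CPM elsewhere.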
